A study of Mus musculus with 34 samples.

Results

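The genes Tpsab1, Mgp, Add2, Tenm4, Acsbg1, Pcolce2, Ldb3, Cdh5, Sfrp2 and St14 were followed across mouse mammary adenocarcinoma lines that differ in the form of the glucocorticoid receptor (GR, gene Nr3c1) they express. They are 10 of the 55341 gene names counted, and they were chosen by their levels in vehicle-treated cells, which differed widely between lines. Those vehicle levels are therefore given below as a description with no test. Line differences are tested in dexamethasone-treated libraries, which the choice did not use, although they come from the same lines. Tests of a dexamethasone response compare with the vehicle libraries that the choice did use. All 34 libraries come from GR-knockout derivatives of a mouse mammary tumour line that stably express GFP-tagged mouse GR. The receptor is WT or carries Y551A or D647V, alone or as Y551A-Dim and D647V-tetra, 1 line per form, and the labels explain neither Dim nor tetra and do not say whether a line is 1 clone. Every library shares a culture of at least 24 h in 10% charcoal/dextran-treated serum with 5 µg/ml tetracycline, and then 2 h with 100 nM dexamethasone (Dex), a synthetic glucocorticoid, or with ethanol (EtOH), its vehicle. Drosophila S2 cells were added at 5% before RNA extraction.

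In set 1, WT and the Y551A lines each have 3 libraries with Dex and 3 with EtOH, 18 in all. In set 2, which has 16 libraries, this is also so for D647V and D647V-tetra, while WT has 2 and 2. The WT line carries the same name in both sets, and its libraries are called WT-set1 and WT-set2 here. Library preparation used 1 of 2 stranded kits, by batch, and the labels tie no library to a kit. It is thus not known whether the sets differ in kit, and a part of the kit in set differences cannot be told apart. Library totals were 44998213 to 70124595 reads counted in genes in set 1 and 60277930 to 79776573 in set 2, and no pair of libraries held identical counts. Nr3c1 was read at 227.2 to 387.7 CPM (counts scaled to library size) in all 34 libraries, and these counts do not separate tagged from endogenous transcript. Nothing says that replicates were separate cultures, so the p-values measure the spread between these libraries only.

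The genes are familiar from very different tissues. Secreted proteins of the matrix and of Wnt signalling (Mgp, Pcolce2, Sfrp2), serine proteases (Tpsab1, St14), adhesion and guidance receptors (Cdh5, Tenm4), cytoskeletal linkers (Add2, Ldb3) and a fatty acid activating enzyme (Acsbg1) are among them, and only St14 is a typical gene of epithelium. GR is a ligand-activated transcription factor that binds palindromes of the half-site AGAACA and can also act through other factors such as AP-1. GR target genes of many cell types respond within the first hours of hormone.

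All 10 genes are protein coding in GENCODE M21 on mm10, and no exonic base of any of them is shared with another gene on the same strand. Mgp lies at chr6:136872435-136875823 on the minus strand, Pcolce2 at chr9:95637601-95698096 (plus), Sfrp2 at chr3:83766321-83774316 (plus) and Tpsab1 at chr17:25343245-25345562 (minus). St14 lies at chr9:31089402-31131853 (minus), Cdh5 at chr8:104101625-104144511 (plus) and Tenm4 at chr7:96171246-96911093 (plus). Add2 lies at chr6:86028681-86124409 (plus), Ldb3 at chr14:34526603-34588682 (minus) and Acsbg1 at chr9:54604877-54661870 (minus). Opposite-strand genes cover 16.1% of the exonic bases of Sfrp2, 4.70% of Tenm4 and 3.51% of Add2, and the authors counted by strand.

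RefSeq promoter windows on GRCm38.p6, from 250 bases before to 50 bases after a start, matched 6 of the 10 genes in 8 windows, and Tpsab1, Mgp, Cdh5 and St14 were not matched. Those of 5 genes are printed, the matched genes that were highest in Y551A (Add2, Acsbg1, Pcolce2, Ldb3) and Tenm4, which was lowest there, with the first window where a gene has 2. Capitals mark the GR half-site AGAACA, which reads TGTTCT from the other strand, and the AP-1 motif TGANTCA, searched on both strands.
Tenm4, chr7:96170994-96171293, plus strand: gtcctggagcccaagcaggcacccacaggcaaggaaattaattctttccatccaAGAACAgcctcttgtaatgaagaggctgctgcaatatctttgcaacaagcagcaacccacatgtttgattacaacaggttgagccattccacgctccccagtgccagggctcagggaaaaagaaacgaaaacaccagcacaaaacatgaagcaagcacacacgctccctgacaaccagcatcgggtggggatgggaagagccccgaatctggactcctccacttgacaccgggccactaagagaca
Add2, chr6:86028431-86028730, plus strand: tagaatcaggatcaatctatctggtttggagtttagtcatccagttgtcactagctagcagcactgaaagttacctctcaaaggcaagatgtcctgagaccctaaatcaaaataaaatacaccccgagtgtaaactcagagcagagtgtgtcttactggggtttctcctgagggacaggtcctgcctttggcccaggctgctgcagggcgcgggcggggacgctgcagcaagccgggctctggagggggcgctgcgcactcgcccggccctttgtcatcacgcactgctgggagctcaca
Acsbg1, chr9:54661836-54662135, minus strand: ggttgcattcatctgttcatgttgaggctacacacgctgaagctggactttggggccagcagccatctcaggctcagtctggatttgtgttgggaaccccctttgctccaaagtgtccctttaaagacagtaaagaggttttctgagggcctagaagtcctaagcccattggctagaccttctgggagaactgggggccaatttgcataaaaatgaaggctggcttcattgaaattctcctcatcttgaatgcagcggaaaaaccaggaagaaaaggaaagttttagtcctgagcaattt
Pcolce2, chr9:95637378-95637677, plus strand: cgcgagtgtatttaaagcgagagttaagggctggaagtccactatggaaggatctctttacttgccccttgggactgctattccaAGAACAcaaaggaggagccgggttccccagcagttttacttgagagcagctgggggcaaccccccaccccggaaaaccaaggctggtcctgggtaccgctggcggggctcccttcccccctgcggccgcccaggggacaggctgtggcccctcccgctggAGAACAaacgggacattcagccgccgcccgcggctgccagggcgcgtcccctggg
Ldb3, chr14:34588632-34588931, minus strand: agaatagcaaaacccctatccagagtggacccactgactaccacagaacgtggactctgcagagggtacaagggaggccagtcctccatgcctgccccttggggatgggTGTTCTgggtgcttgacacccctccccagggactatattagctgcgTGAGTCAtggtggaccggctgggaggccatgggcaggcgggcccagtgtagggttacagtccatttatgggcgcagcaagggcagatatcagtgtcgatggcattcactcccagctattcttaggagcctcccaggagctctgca
The half-site was found in 4 of the 8 windows (Tenm4, Pcolce2 and the overlapping pair of Ldb3), beside 18.97% of all 32851 promoters searched, and Pcolce2 holds it at 2 positions. Promoters of a chromosome that holds none of the 10 genes were left out, here and in the shares below. The AP-1 motif was found in both Ldb3 windows, which overlap and share the match, beside 7.81% of all promoters. The full palindrome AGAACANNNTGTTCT was in none of the 8 windows and in 0.009% of all promoters. TATAAA was in none of the 8 and in 13.6% of all. Acsbg1 has 2 CpG dinucleotides in its window, fewer than most promoters (14.1% have fewer), and Sfrp2 has 22 (76.9% have fewer). A match here is a match of letters and not a measured binding site.

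Y551A held the highest EtOH mean of 5 of the 9 members above the floor (Tpsab1, Add2, Acsbg1, Pcolce2, Ldb3) and WT-set1 that of 3 (Mgp, Tenm4, Cdh5), while WT-set1 held the lowest mean of 4 of the 5 that were highest in Y551A. The widest ranges in set 1 were 21.2-fold for Tpsab1, 15.0-fold for Add2, 13.9-fold for Mgp and 13.1-fold for Tenm4. A range of at least 4-fold between the EtOH means of set 1, with 1 CPM reached, was met by 6 of the 9 members that reached it and by 0.629% of 12236 genes. In set 2 it was met by Tpsab1 and Ldb3 only (2 of 9, and 0.121% of 12414 genes). Between WT-set1 and WT-set2 it was met by Tpsab1 and Mgp (2 of 9, and 0.751% of 12379 genes). These counts restate how the genes were listed. St14, which did not reach 1 CPM, is described with the proteases. In bulk RNA, fewer cells expressing a gene and less RNA per cell cannot be told apart.

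**Figure D1:**
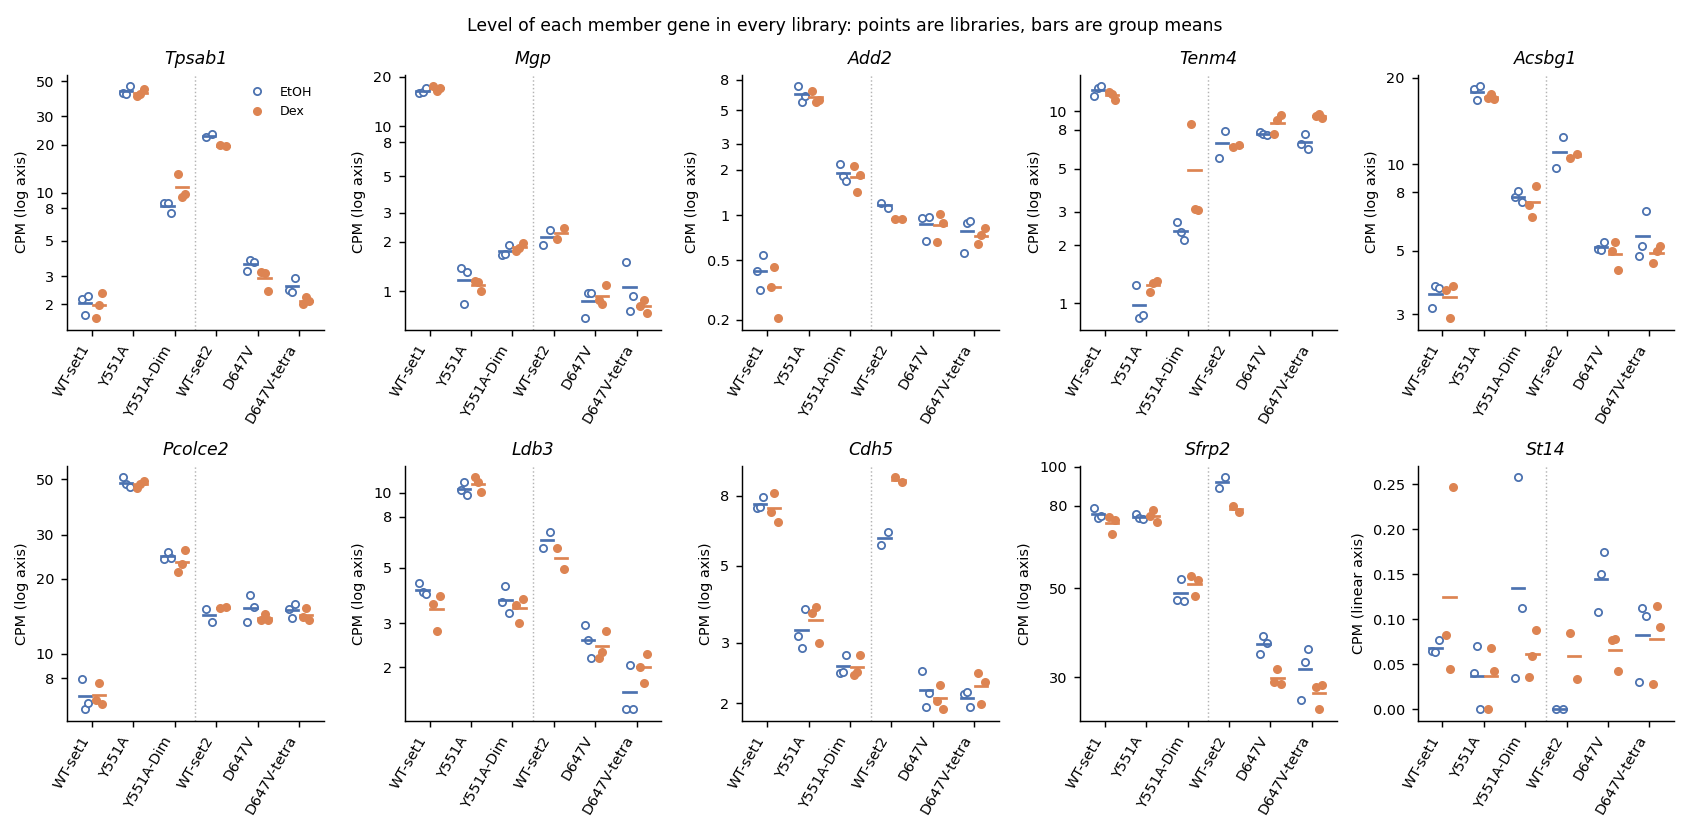
CPM of each of the 10 genes in every library, on a log axis for all genes except St14, which has a linear axis; open points are EtOH, filled points Dex, short bars group means, and the dotted line separates set 1 from set 2. In most panels the EtOH and Dex points of a line lie together while the lines lie apart, for example Tpsab1 between 1.64 and 46.4 CPM.

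Among the secreted proteins, Mgp, the vitamin K-dependent inhibitor of calcification made by cartilage and vascular smooth muscle, was highest in WT-set1. Mgp read 16, 16.1 and 17.1 CPM in EtOH libraries of WT-set1, 1.40, 0.837 and 1.31 in Y551A, and 1.67, 1.69 and 1.92 in Y551A-Dim. In set 2 Mgp read 1.92 and 2.34 CPM in WT-set2, 0.691, 0.975 and 0.973 in D647V, and 1.51, 0.758 and 0.935 in D647V-tetra. Every WT-set1 library stood apart from all others, and the values of Y551A, D647V and D647V-tetra overlapped. In Dex libraries Mgp averaged 16.97 ± 0.569 (SD, n = 3) CPM in WT-set1 and 1.10 ± 0.0830 (n = 3) in Y551A, a log2 difference of -3.96 ± 0.123 (SE, adjusted p = 6.31e-19, edgeR's quasi-likelihood test, Benjamini-Hochberg adjusted over all genes, as for every adjusted p below). Mgp in Y551A-Dim was lower than in WT-set1 as well (-3.20 ± 0.110, adjusted p = 9.68e-18) and higher than in Y551A by 0.76 ± 0.147 (adjusted p = 0.000285).

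Pcolce2, which raises the activity of the enzyme that cuts the carboxyl end of procollagens, was highest in Y551A. Pcolce2 read 7.94, 6.002 and 6.36 CPM in EtOH libraries of WT-set1, 50.8, 47.8 and 46.7 in Y551A, and 24.0, 25.6 and 24.2 in Y551A-Dim. In set 2 it read 15.1 and 13.4 CPM in WT-set2, 13.4, 17.1 and 15.4 in D647V, and 15.1, 13.9 and 15.9 in D647V-tetra. The 3 lines of set 1 did not overlap, with Y551A-Dim in the middle, while the 3 lines of set 2 overlapped. In Dex libraries Pcolce2 was 47.8 ± 1.57 CPM in Y551A and 6.83 ± 0.738 in WT-set1 (n = 3 each), a log2 difference of 2.80 ± 0.0882 (adjusted p = 8.24e-19). Of its partners, Pcolce, the first member of the family, was expressed in all libraries at 199 to 366 CPM and was lower in Y551A (-0.54 ± 0.0374 on the log2 scale, adjusted p = 8.03e-12). Adamts2, an amino-end procollagen protease, was higher there by 0.79 ± 0.0561 (adjusted p = 1e-11), and over the procollagen processing list 3 of 9 genes tested were higher and 2 lower in Y551A, where 19% of all genes were higher and 22.1% lower.

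Sfrp2, a secreted Wnt modulator related to frizzled receptors, had the highest length-scaled level of the 10 genes (42.5 CPM per kb in EtOH libraries of WT-set2). Sfrp2 read 79.2, 74.7 and 75.4 CPM in EtOH libraries of WT-set1, 76.3, 74.8 and 74.2 in Y551A, and 46.8, 52.7 and 46.5 in Y551A-Dim. In set 2 it read 88.8 and 94.2 CPM in WT-set2, 34.3, 38.0 and 36.6 in D647V, and 26.3, 32.8 and 35.3 in D647V-tetra. WT-set1 and Y551A overlapped, and both D647V lines lay below every other library. In Dex libraries the WT-set1 and Y551A levels did not pass the test (log2 difference 0.05 ± 0.0513, adjusted p = 0.484), whereas Sfrp2 was lower in Y551A-Dim (-0.51 ± 0.0518, adjusted p = 3.25e-08). Sfrp1, the closest family member on the list, was at 0 to 0.0903 CPM, and 16 of the 18 genes of the SFRP and Wnt antagonist list never reached 1 CPM, the exceptions being Wnt5a and Fzd7.

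Tpsab1, a tryptase of mast cell granules, spanned the widest range of all. Tpsab1 read 2.15, 1.71 and 2.27 CPM in EtOH libraries of WT-set1, 41.8, 41.3 and 46.4 in Y551A, and 8.64, 8.56 and 7.49 in Y551A-Dim. Set 2 gave 22.2 and 23.2 CPM in WT-set2, 3.23, 3.79 and 3.69 in D647V, and 2.46, 2.37 and 2.93 in D647V-tetra. No neighbouring pair of lines in the order Y551A, WT-set2, Y551A-Dim, D647V, D647V-tetra, WT-set1 overlapped, and the WT groups stood second and last in that order. In Dex libraries Tpsab1 was 42.0 ± 2.29 CPM in Y551A and 1.99 ± 0.35 in WT-set1 (n = 3 each), a log2 difference of 4.39 ± 0.122 (adjusted p = 1.59e-19). Only Gata2 and Il1rl1 of the 16 genes on the mast cell list reached 1 CPM in any library, and 8 (Cpa3, Mcpt1, Mcpt2, Mcpt4, Fcer1a, Ms4a2, Mrgprb1, Mrgprb2) had no read in any of the 34. The sum of that list ran from 0.253 to 0.551 CPM per kb and reached its highest value in WT-set1 (0.422 to 0.551), where Tpsab1 was lowest. Il1rl1 was lower in Y551A than in WT-set1 (-0.96 ± 0.204, adjusted p = 0.000357), whereas Gata2 had its highest EtOH mean in Y551A (1.3 CPM) and its lowest in D647V (0.812 CPM). The part of mast cells in the Tpsab1 levels was not tested. Tpsb2, the tandem partner of Tpsab1, had 27 reads in all libraries together. Reads that map to several genes were not counted, so a near-identical copy could hide reads of either gene.

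St14, matriptase, an epithelial membrane protease, had very few reads in every line. St14 had 0 to 14 reads per library and 166 in all, never exceeded 0.258 CPM, and had no read in 4 of the 34 libraries. Its EtOH reads were 4, 4 and 4 in WT-set1, 2, 4 and 0 in Y551A, 2, 14 and 6 in Y551A-Dim, 0 and 0 in WT-set2, 8, 12 and 14 in D647V, and 2, 8 and 8 in D647V-tetra. The lines of set 1 overlapped. In set 2 D647V (34 EtOH reads in all) and D647V-tetra (18) both stood above WT-set2 (0) and overlapped each other. No fold is given against a group at 0 or against so few reads. The matriptase inhibitor gene Spint2 (0 to 0.0713 CPM) and the partner protease Prss8 (0 to 0.0814 CPM) were as low. Spint1, the main inhibitor, was read at 0.0287 to 0.499 CPM and was higher in Y551A-Dim than in WT-set1 (1.81 ± 0.627, adjusted p = 0.0335). On the same list Met, the hepatocyte growth factor receptor, was read at 264 to 393 CPM and Tmprss6, a related protease, at 0.473 to 1.55.

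Of the adhesion receptors, Cdh5 (VE-cadherin of endothelial junctions) was highest in the WT lines. Cdh5 read 7.36, 7.39 and 7.92 CPM in EtOH libraries of WT-set1, 3.13, 2.90 and 3.74 in Y551A, and 2.46, 2.47 and 2.76 in Y551A-Dim. Set 2 gave 5.76 and 6.29 CPM in WT-set2, 2.48, 1.95 and 2.15 in D647V, and 2.13, 2.16 and 1.95 in D647V-tetra. Neither WT group overlapped any mutant line, while D647V overlapped both Y551A-Dim and D647V-tetra. In Dex libraries Cdh5 was lower than WT-set1 in Y551A (-1.08 ± 0.121, adjusted p = 3.9e-08) and in Y551A-Dim (-1.53 ± 0.122, adjusted p = 3.59e-10). Of the 16 other endothelial genes listed, only Emcn reached 1 CPM, Cldn5 had no read, Kdr had 20 reads in all libraries and Pecam1 stayed at or below 0.308 CPM. The list summed to 0.390 to 0.877 CPM per kb and was highest in WT-set1 (0.738 to 0.877), and of the 4 genes tested in Y551A against WT-set1, Emcn was lower (-0.84 ± 0.191, adjusted p = 0.000755) and Flt1 higher (1.75 ± 0.468, adjusted p = 0.00333). The part of other cells in these levels was not tested. Cdh2 (N-cadherin) was read at 109 to 128 CPM and Cdh1 (E-cadherin) at 0 to 0.0698 CPM.

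Tenm4, a teneurin that spans the membrane and binds latrophilins in neural adhesion, ran opposite to the genes that were highest in Y551A. Tenm4 read 12.0, 13.2 and 13.5 CPM in EtOH libraries of WT-set1, 1.24, 0.837 and 0.871 in Y551A, and 2.63, 2.36 and 2.12 in Y551A-Dim. The set 2 values were 5.71 and 7.89 CPM in WT-set2, 7.82, 7.61 and 7.50 in D647V, and 6.75, 7.58 and 6.33 in D647V-tetra. The 3 lines of set 1 did not overlap and those of set 2 did. In Dex libraries Tenm4 was 12.1 ± 0.600 CPM in WT-set1 and 1.24 ± 0.0822 in Y551A (n = 3 each), a log2 difference of -3.29 ± 0.267 (adjusted p = 1.38e-10). Tenm1, Tenm2 and Tenm3 never exceeded 0.428 CPM. Adgrl2, a latrophilin, was lower in Y551A by 2.24 on the log2 scale (-2.24 ± 0.0914, adjusted p = 2.12e-16), and 2 of 6 tested genes on the teneurin and latrophilin list were lower and none higher, beside 22.1% and 19% of all genes.

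Of the cytoskeletal genes, Add2 (beta-adducin, which caps actin filaments and joins them to spectrin in red cells and neurons) was lowest in WT-set1. Add2 read 0.423, 0.316 and 0.538 CPM in EtOH libraries of WT-set1, 7.26, 5.70 and 6.26 in Y551A, and 2.20, 1.82 and 1.69 in Y551A-Dim. The set 2 values were 1.21 and 1.12 CPM in WT-set2, 0.948, 0.675 and 0.973 in D647V, and 0.554, 0.884 and 0.909 in D647V-tetra. The lines of set 1 were apart and D647V and D647V-tetra overlapped. In Dex libraries Add2 was 6.11 ± 0.541 CPM in Y551A and 0.329 ± 0.123 in WT-set1 (n = 3 each), a log2 difference of 4.21 ± 0.227 (adjusted p = 5.99e-14). The other adducins were expressed throughout, Add1 at 168 to 234 CPM and Add3 at 72.6 to 96.7, and Add3 was lower in Y551A by 0.35 (-0.35 ± 0.0405, adjusted p = 8.41e-08). Of the 13 erythroid genes listed, Hba-a1 was higher in Y551A (2.03 ± 0.225, adjusted p = 3.66e-08) with the list at 6.19 to 7.03 CPM per kb there and 2.88 to 3.55 in WT-set1. Their part in the Add2 difference was not tested.

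Ldb3, a PDZ-LIM protein of the striated muscle Z-disc, was highest in Y551A as well. Ldb3 read 4.35, 3.996 and 3.94 CPM in EtOH libraries of WT-set1, 10.2, 11 and 9.84 in Y551A, and 3.66, 4.23 and 3.29 in Y551A-Dim. In set 2 it read 6.01 and 6.94 CPM in WT-set2, 2.95, 2.58 and 2.18 in D647V, and 1.36, 2.04 and 1.36 in D647V-tetra. WT-set1 and Y551A-Dim overlapped, and D647V-tetra held the lowest levels. In Dex libraries Ldb3 was 10.9 ± 0.758 CPM in Y551A and 3.41 ± 0.543 in WT-set1 (n = 3 each), a log2 difference of 1.66 ± 0.118 (adjusted p = 1.09e-11), while the difference between Y551A-Dim and WT-set1 was 0.01 ± 0.126 (adjusted p = 0.977). Of its family, 5 of 8 tested PDZ-LIM and Z-disc genes were higher in Y551A and none lower (19% and 22.1% of all genes), led by Fhl2 at 1.32 ± 0.0561 (adjusted p = 4.57e-16), and Pdlim5, which was highest in Y551A among EtOH means, was lower in D647V-tetra than in WT-set2 (-0.76 ± 0.0397, adjusted p = 2.07e-09). The muscle regulators Myod1, Myf5 and Myf6 had no read in any library, while Mef2c was read at 34.3 to 45.3 CPM, Des at 15.5 to 29.4 and Tnnt2 at 8.78 to 20. Acta1 (1.496 ± 0.538, adjusted p = 0.0268), which never exceeded 0.594 CPM, and Des (0.41 ± 0.0749, adjusted p = 6.24e-05) were among the 3 of 5 tested that were higher in Y551A. In Y551A-Dim against WT-set1 Des was higher too (0.54 ± 0.0737, adjusted p = 3.48e-06) and Myh3 lower (-1.30 ± 0.416, adjusted p = 0.021). Of the 16 striated muscle genes listed, 13 never reached 1 CPM. The list summed to 11.4 to 12.6 CPM per kb in Y551A, 10.0 to 11.8 in Y551A-Dim and 8.55 to 9.73 in WT-set1. The part of these genes in the Ldb3 difference was not tested.

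Acsbg1, of the bubblegum family that activates long-chain fatty acids in brain and steroid-making tissues, completes the list. Acsbg1 read 3.14, 3.78 and 3.69 CPM in EtOH libraries of WT-set1, 18.3, 16.7 and 18.7 in Y551A, and 7.70, 8.04 and 7.38 in Y551A-Dim. Values in set 2 were 9.70 and 12.5 CPM in WT-set2, 5.08, 5.04 and 5.37 in D647V, and 4.79, 5.19 and 6.87 in D647V-tetra. The lines of set 1 did not overlap and the D647V lines overlapped each other. In Dex libraries Acsbg1 was 17.2 ± 0.398 CPM in Y551A and 3.44 ± 0.459 in WT-set1 (n = 3 each), a log2 difference of 2.31 ± 0.101 (adjusted p = 8.79e-16). Its partner Acsbg2 stayed at 0 to 0.251 CPM, and of the 9 tested acyl-CoA synthetase genes 1 was higher and 3 lower in Y551A, beside 19% and 22.1% of all genes.

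In the Dex libraries of set 1, 8 of the 9 members tested differed between Y551A and WT-set1 (5 higher, 3 lower), where 41.1% of the 16140 genes tested did (19% higher, 22.1% lower). The median absolute log2 difference was 2.80 over the members tested and 0.217 over all genes. Large differences are built into this comparison, because the genes were chosen for EtOH differences between the same lines. Tpsab1, for example, was 21.2-fold higher in Y551A than in WT-set1 in EtOH libraries and 21.1-fold in Dex libraries. The medians and the shares of called members here, in set 2 and between the WT groups therefore carry that choice. In Y551A-Dim against WT-set1 the members called were again 8 of 9 (4 higher: Tpsab1 2.43 ± 0.131, Add2 2.46 ± 0.246, Pcolce2 1.77 ± 0.0895 and Acsbg1 1.10 ± 0.105; 4 lower, Tenm4 -1.31 ± 0.220 among them), with 26% of all genes called (12% higher, 14% lower). The medians were 1.53 and 0.148 there. These 2 comparisons share the WT-set1 libraries. All 9 differed between Y551A-Dim and Y551A (25.5% of all genes, 12.8% higher and 12.7% lower), with 7 lower and Mgp and Tenm4 higher in Y551A-Dim. In that comparison Tenm4 was 1.98 ± 0.279 higher and Tpsab1 1.96 lower (-1.96 ± 0.0953). Without the first Dex library of Y551A-Dim, Tenm4 differed by -1.98 from WT-set1 and by 1.31 from Y551A. The Cdh5 difference between these lines (-0.45 ± 0.128, adjusted p = 0.0106) was lost when only the groups compared were fitted. Y551A-Dim lay between WT-set1 and Y551A in 7 of the 8 members that differed at least 2-fold between them (87.5%), and in 82.7% of the 659 genes of that kind, a share near that of the members.

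In set 2 every called member but Tenm4 was lower in the D647V lines than in WT-set2. In D647V 6 of 10 members were called by edgeR's test, all lower, where 9.42% of 17535 genes were called (4.1% higher, 5.32% lower), and the median absolute log2 difference was 1.16 over the members and 0.165 over all genes. They were Tpsab1 (-2.76 ± 0.117), Cdh5 (-2.10 ± 0.138), Sfrp2 (-1.40 ± 0.0901), Mgp (-1.27 ± 0.250), Ldb3 (-1.18 ± 0.193) and Acsbg1 (-1.13 ± 0.141). Adjusted p ran from 5.33e-10 for Tpsab1 to 0.0046 for Mgp, and the Mgp call was lost without the second Dex library of WT-set2. D647V-tetra gave the same direction for those 6, with Tpsab1 at -3.22 ± 0.120, and a 7th call in Tenm4, higher by 0.52 ± 0.128 (adjusted p = 0.013), which was lost without either Dex library of WT-set2. Here 12.4% of all genes were called (5.55% higher, 6.85% lower), with medians of 1.28 and 0.178. In D647V the difference of Tenm4 from WT-set2 was 0.40 ± 0.128 (adjusted p = 0.0577), and DESeq2 called it (adjusted p = 0.0207), as did edgeR without a filter (0.0355) and with only the groups compared (0.0402). The D647V and D647V-tetra comparisons share the WT-set2 libraries. Between D647V-tetra and D647V no member was called by edgeR's test. The count was 0 of 10, where 1.87% of all genes were called, with 1 at an unadjusted p under 0.05 and 1 by DESeq2, and that 1 was Tpsab1 at -0.46 ± 0.116 (adjusted p = 0.0514). Pcolce2 and Add2, which separate the lines of set 1 widely, gave log2 differences between -0.36 and -0.09 against WT-set2 in both D647V lines, each with an adjusted p of at least 0.361.

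The WT line, the same by name, differed between the sets. In Dex libraries 8 of the 9 members tested differed between WT-set2 and WT-set1 (6 higher, 2 lower), where 33.7% of 16540 genes did (15.3% higher, 18.3% lower), with median absolute log2 differences of 1.16 over the members and 0.211 over all genes. Tpsab1 was 19.7 ± 0.0588 CPM (n = 2) in WT-set2 and 1.99 ± 0.35 (n = 3) in WT-set1, a log2 difference of 3.31 ± 0.118 (adjusted p = 8.12e-12). Mgp was lower in WT-set2 by 2.92 (-2.92 ± 0.104, adjusted p = 8.12e-12), Acsbg1 higher by 1.63 ± 0.132, Add2 by 1.53 ± 0.349, Pcolce2 by 1.17 ± 0.112 and Ldb3 by 0.69 ± 0.146, and Tenm4 lower (-0.88 ± 0.114). The Cdh5 call (0.28 ± 0.101, adjusted p = 0.0428) was lost in 7 of 10 other settings, and Sfrp2 was not called (0.12 ± 0.0524, adjusted p = 0.0884).

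**Figure D2:**
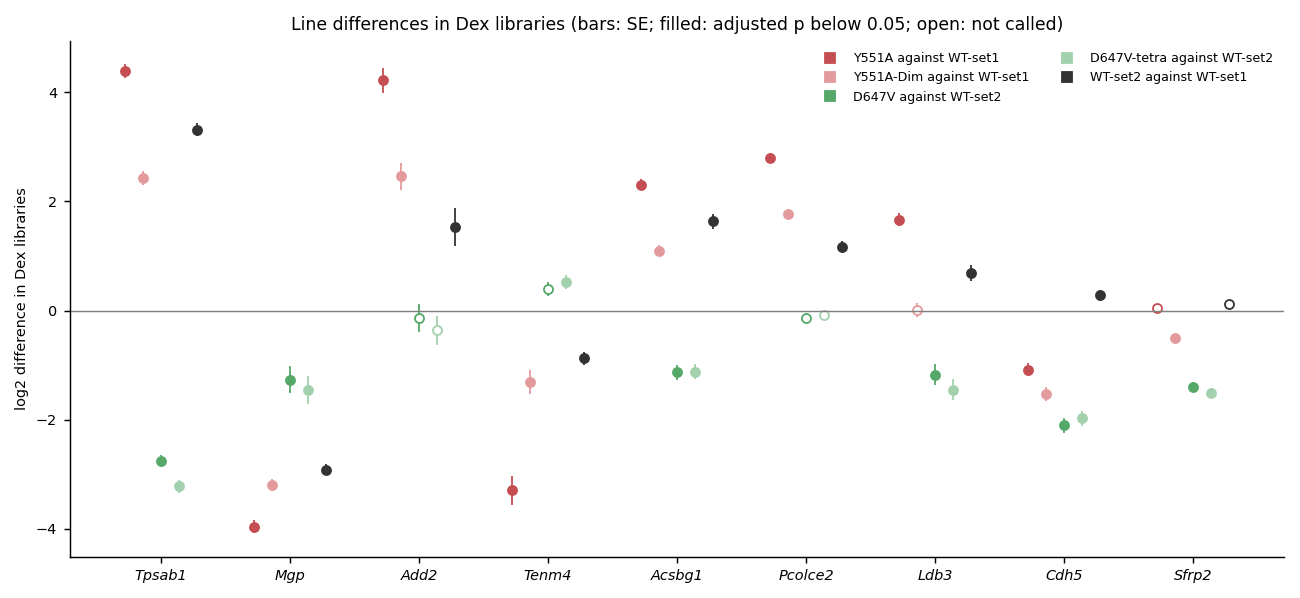
Log2 difference between lines in Dex libraries for 9 genes, with SE as bars; filled points passed an adjusted p of 0.05 and open points did not, and St14 is left out because of its few reads. Y551A stands farthest from zero in Tpsab1 (4.39), Add2 (4.21), Mgp (-3.96) and Tenm4 (-3.29), and WT-set2 against WT-set1 reaches 3.31 in Tpsab1.

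Across all 34 libraries Tpsab1 went with Acsbg1 (Pearson r = 0.965 of log2 CPM), Add2 with Pcolce2 (0.961) and with Acsbg1 (0.904), and Tenm4 ran against Pcolce2 (-0.936) and Add2 (-0.929). Mgp went with Cdh5 (0.792), and Sfrp2 with Ldb3 (0.816) and Cdh5 (0.8). These correlations are a description over libraries that share lines, sets and treatments. By the same measure over 12725 genes, the most similar genes were Tdrd7 (0.976) for Tpsab1 and (0.974) for Acsbg1, Lamb3 (0.982) and Fam19a5 (0.970) for Pcolce2, Ano1 (0.973) and Krt16 (0.969) for Add2, and Unc5b (0.978) and Pdlim5 (0.960) for Ldb3. Tenm4 was most like Scara5 (0.973) and H2-M10.1 (0.968), Mgp most like Oxct1 (0.939) and Gmds (0.936), Cdh5 most like Pou3f1 (0.954) and Dock8 (0.921), and Sfrp2 most like Sardh (0.964) and Cbr2 (0.960). St14, at its few reads, correlated with no gene above 0.7.

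**Figure D3:**
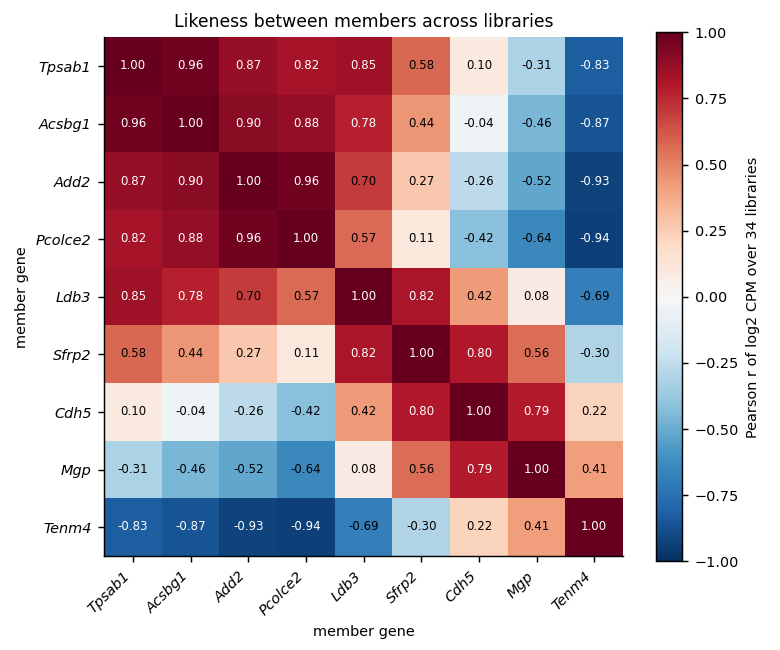
Pearson correlation of log2 CPM between 9 of the genes over 34 libraries, from -1 (blue) to 1 (red). Tpsab1, Acsbg1, Add2 and Pcolce2 are alike at 0.824 or above and all 4 run against Tenm4, while Cdh5 is most like Sfrp2 (0.8) and Mgp (0.792).

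The genes next to the members on the chromosome were compared in the same way. Among 17 nearest tested neighbours of the 9 members in Y551A against WT-set1, log2 differences ran from -0.45 (Fam136a, beside Add2) to 0.98 (Dnaja4, beside Acsbg1). Their median size was 0.17, and 8 of the 17 were called, beside 41.1% of all genes, and none at 2-fold or more. Dnaja4 was higher, as Acsbg1 was (0.98 ± 0.376, adjusted p = 0.0374). Idh3a, 215 bases from Acsbg1, was lower by 0.23 (-0.23 ± 0.0375) where Acsbg1 was higher by 2.31. Trpc1, 6985 bases from Pcolce2, was 0.23 ± 0.0548 higher where Pcolce2 was 2.80 higher. In D647V-tetra against WT-set2 the neighbours ran from -0.74 to 0.32. Tlr2, 61955 bases from Sfrp2, was lower there (-0.74 ± 0.0715, adjusted p = 4.13e-06) as Sfrp2 was. Sstr5, the neighbour of Tpsab1 at higher coordinates, is left out of these ranges for its low counts. Sstr5 gave 2.06 ± 1.09 in Y551A (adjusted p = 0.14) and was called higher in Y551A-Dim against WT-set1 (3.33 ± 0.963, adjusted p = 0.0112), where Tpsab1 was higher too.

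**Figure D4:**
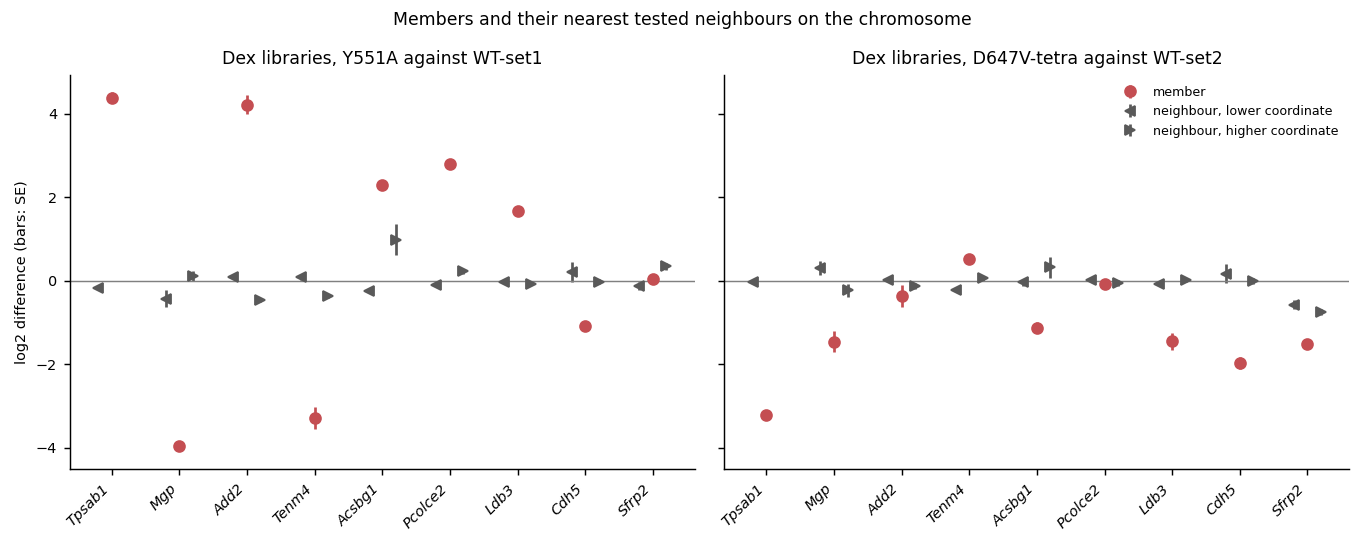
Log2 difference of each gene (circles) and of its nearest tested neighbour on either side (triangles) in Dex libraries, with SE as bars, for Y551A against WT-set1 and D647V-tetra against WT-set2. Sstr5 is not drawn. The other neighbours lie between -0.45 and 0.98 in Y551A and between -0.74 (Tlr2) and 0.32 in D647V-tetra, while the members reach 4.39 and -3.96 in Y551A.

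By edgeR's test Tenm4 was the only member called for a change with 2 h of Dex, and DESeq2 also called Tpsab1 in Y551A-Dim (0.39, adjusted p = 0.0101) and Cdh5 in WT-set2 (0.57, adjusted p = 0.00523). Over the 6 line groups, 57 tests of a Dex response were possible and 2 were called, both in Tenm4, and the log2 change of the other 8 members besides St14 lay between -0.38 and 0.56 in every group. In WT-set1 0 of 9 members were called by edgeR's test, where 3.40% of all genes were; 1 (Ldb3, -0.27 ± 0.124) had an unadjusted p under 0.05, and DESeq2 called 0. In Y551A it was 0 of 9 (1.84% of all genes), with 0 at an unadjusted p under 0.05 and 0 by DESeq2. In WT-set2 it was 0 of 10 (1.72% of all genes), with 3 at an unadjusted p under 0.05 and 1 by DESeq2. The 3 were Cdh5, Sfrp2 and St14, and St14 rests on 0 reads in EtOH and 8 in Dex. The DESeq2 call was Cdh5, which read 5.76 and 6.29 CPM in EtOH and 9.03 and 8.73 in Dex (0.56 ± 0.148, adjusted p = 0.0777 by edgeR). In D647V it was 0 of 10 (0.941% of all genes), with 2 at an unadjusted p under 0.05 and 0 by DESeq2. A missed threshold does not show that these genes do not respond, and the widest SE among those 8 members was 0.301. Each test used the EtOH libraries by whose levels the genes were chosen, so the choice can bear on the change.

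In Y551A-Dim (1 of 9 members, and 1.09% of all genes) Tenm4 read 2.63, 2.36 and 2.12 CPM in EtOH and 8.58, 3.08 and 3.06 in Dex, so the groups did not overlap and 1 Dex library stood far above the others. The change was 1.04 ± 0.247 (adjusted p = 0.034) and 0.37 without that library, and the call was lost in 5 of 11 other settings. That library had 11 genes at 2-fold or more above both other replicates, against a median of 2 and up to 78 over all libraries of groups of 3. Tpsab1 was also highest in that library, at 13.2 CPM beside 9.39 and 9.86 (0.39 ± 0.104, adjusted p = 0.0717 by edgeR, 0.0101 by DESeq2). In Y551A-Dim 2 members had an unadjusted p under 0.05 and DESeq2 called 2, Tenm4 and Tpsab1. In D647V-tetra (1 of 10, and 19.2% of all genes) Tenm4 read 6.75, 7.58 and 6.33 CPM in EtOH and 9.41, 9.67 and 9.19 in Dex, with no overlap. Its change of 0.47 ± 0.113 (adjusted p = 0.00927) was not called without the third EtOH library. In the remaining lines the log2 difference of Tenm4 was -0.10 ± 0.207 (WT-set1), 0.35 ± 0.347 (Y551A), -0.04 ± 0.14 (WT-set2) and 0.19 ± 0.112 (D647V), none of them called.

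No member was called for a difference in Dex response between a mutant line and the WT of its set, by edgeR's test of the difference itself. For Y551A it was 0 of 9 members (0.180% of all genes called, 1 at an unadjusted p under 0.05 and 0 by DESeq2), for Y551A-Dim 0 of 9 (1.47%, 3 and 0), for D647V 0 of 10 (0.188%, 2 and 0) and for D647V-tetra 0 of 10 (4.41%, 3 and 1). St14, with 0 reads in the EtOH libraries of WT-set2, was among those at an unadjusted p under 0.05 in D647V and in D647V-tetra. With all libraries the largest difference apart from St14 was that of Tenm4 in Y551A-Dim, 1.14 ± 0.322 (adjusted p = 0.087). It rests on the first Dex library of Y551A-Dim, without which the Tenm4 response there was 0.37. The difference of Cdh5 in D647V was -0.64 ± 0.197 (adjusted p = 0.564). The responses share their WT libraries within a set and use the EtOH libraries by which the genes were chosen.

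**Figure D5:**
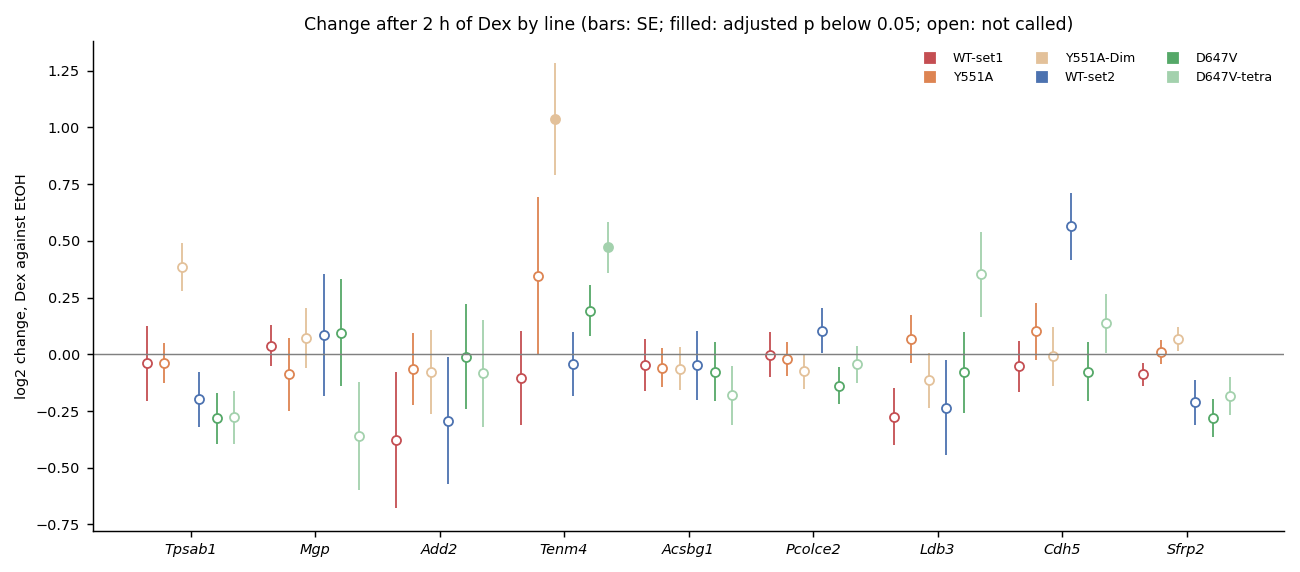
Log2 change after 2 h of Dex in each line for 9 genes, with SE as bars; filled points passed an adjusted p of 0.05 and open points did not. Only Tenm4 in Y551A-Dim (1.04) and in D647V-tetra (0.47) is filled, and the other points lie between -0.38 and 0.56.

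Markers of the cells themselves were mixed. Vim was read at 3790 to 5530 CPM, Fn1 at 1770 to 4040 and Sparc at 895 to 1600. Of the collagens listed, Col1a2 was read at 1590 to 2780 CPM, Col6a1 at 263 to 878 and Col5a1 at 123 to 222. Col3a1 was lower, at 6.64 to 14.3 CPM, and Col1a1 was at 0.903 to 2.49. Of the 18 fibroblast and matrix genes 5 (Fap, Thy1, Dcn, Lum, Fbln1) never reached 1 CPM. Of the 20 epithelial genes listed 17 never reached 1 CPM, with Epcam, Cldn3 and Cldn7 at 0 reads, and Krt14 reached 20.3 CPM. The epithelial list summed to 11 to 12.3 CPM per kb in Y551A and 2.09 to 2.86 in WT-set1. Krt14 made 11.2 CPM per kb of the EtOH mean in Y551A. Of the 6 epithelial genes tested, Krt14 was higher in Y551A by 2.71 ± 0.0860 (adjusted p = 8.59e-19) and Trp63 lower (-2.07 ± 0.322, adjusted p = 7.54e-06). The fibroblast and matrix list had 10 of 13 tested genes higher in Y551A and none lower, beside 19% and 22.1% of all genes, and summed to 2270 to 2420 CPM per kb there against 1850 to 1970 in WT-set1. Nr3c1 was 354 ± 5.85 CPM in EtOH libraries of Y551A and 282 ± 5.51 in WT-set1 (n = 3 each). The part of these differences in those of the 10 genes was not tested.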

How the data were processed

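Total RNA of 34 libraries was sequenced as 100 bp paired reads. Per the submitters' processing notes the authors used bcl2fastq 2.17, cutadapt and STAR on mm10. The deposited values are raw counts per gene name, made with featureCounts 2.0.3 on GENCODE M21 exons with strand-specific counting, per the file headers; both mates of a pair were counted, multi-mapping reads were not, and duplicates were marked and kept. Set 2 headers carry the word resent. Spike-in reads were not used here.

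Groups follow the labels, and the split into sets matches the word resent, which all 16 set 2 headers and no set 1 header carry. The 10 genes and the 19 related gene lists were chosen with earlier results of these data known. Counts were analysed in R 4.3.3 with edgeR 4.0.16 (limma 3.58.1), filterByExpr, TMM scaling and the quasi-likelihood test with Benjamini-Hochberg adjustment over all genes of a contrast. Set 1 (18 libraries, 16140 genes, 12 residual degrees of freedom), set 2 (16 libraries, 17535 genes, 10) and the 10 WT libraries (16540 genes, 6) were fitted separately, with 1 mean per group. The biological coefficient of variation was 5.13%, 8.62% and 5.54%. St14 passed the low-count filter in set 2 only, and the other 9 members passed in all. In set 2 St14 reached 0.175 CPM in EtOH libraries of D647V, and no other group there exceeded 0.115. Its place among the 10 members tested in set 2 thus rests on D647V. Calls are at adjusted p under 0.05. An SE is the log2 difference divided by the square root of F. CPM use 1 TMM scaling over all 34 libraries, with SD; log2 CPM for correlations used a prior count of 2. Named genes are the 10 members, Nr3c1, the 2 most similar genes, the nearest tested neighbours, family partners and the extremes of each list per contrast; markers at or near 0 (such as Pecam1 and Kdr) and other genes outside this rule were named after their values were seen. Alternatives were DESeq2 1.42.0, RLE scaling, no filter, only the groups compared, a replicate block and leaving out each library. The test was checked on simulated counts. Python 3.11.15, pandas 2.3.3 and matplotlib 3.10.9 drew the figures. A likeness of Mgp within sets is not reported here.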

Additional observations from a re-analysis of the deposited data

How the results depend on the processing

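Of the gene-level values recomputed under other settings, 1256 stayed on the same side of the threshold, 17 lost it and 23 gained it. Among values called in the main or the other setting, 0 reversed direction. Direction was not compared for values called in neither setting, and response differences of that kind were left out of these counts. The number of members called in D647V-tetra against D647V was 0, and 1 under RLE scaling, without a filter and by DESeq2. The number with a called Dex response in Y551A-Dim was 1, 2 without a filter and 2 by DESeq2, and 0 with only the groups compared. In D647V it was 0, and 1 without a filter and 1 with only the groups compared. In D647V-tetra it was 1, and 2 without a filter. In WT-set2 it was 0, and 1 by DESeq2. The difference of response was called in 0 members for Y551A-Dim and in 1 without a filter, and in 0 for D647V-tetra and in 1 by DESeq2. In D647V against WT-set2 it was 6, and 7 by DESeq2, without a filter and with only the groups compared, with Tenm4 higher. The cause of these moves was not tested.

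Leaving out 1 library gave 0 to 2 called Dex responses in Y551A-Dim, 0 to 2 in D647V-tetra, 0 to 1 response differences for Y551A-Dim and 0 to 1 for D647V-tetra. It gave 0 to 1 called members between D647V-tetra and D647V, 5 to 7 between D647V and WT-set2, 6 to 7 between D647V-tetra and WT-set2 and 7 to 8 between the WT sets, and 1 to 2 members with a 4-fold EtOH range in set 2. Leaving out the first Dex library of Y551A-Dim was also listed as an alternative after seeing the data.

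Replicate numbers share only a number: correlations of deviations ran from -0.202 to 0.18, with 1 of 33 pairs over 0.1 and 0 of 12 contrasts with every pair over 0.1. With the replicate block the call in Cdh5 between the WT sets was lost (0.27, adjusted p = 0.0957), which leaves 7 members called. Every other count of members stayed as it was under the block. Depth limits St14, with 0 to 14 reads per library.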
